A study of Mus musculus with 22 samples.

Results

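The genes of glutamate and GABA transport and recycling described here are 8 of the 55385 genes quantified, all 8 of them among the 20524 genes tested, in 6 mouse brain cell types: the vesicular transporters Slc17a7, Slc17a6 and Slc32a1, the plasma membrane transporters Slc1a1, Slc1a2, Slc1a3 and Slc6a11, and the enzyme Glul. They were taken by gene symbol, with the values of all transcripts of a gene summed. The study sequenced mRNA bound to tagged ribosomes (RiboTag), in which Cre recombinase switches on an HA-tagged Rpl22 ribosomal protein in 1 cell type, so that an anti-HA pull-down enriches that cell type's translated mRNA. All mice were 6 weeks old and carried 1 floxed Rpl22 allele (Rpl22 Fl/+), from B6N.129-Rpl22tm1.1Psam/J dams. Rbp4-Cre marked both dentate gyrus granule cells, from hippocampus, and layer V neurons, from cortex, so that these groups differ by the tissue dissected and not by the driver. Gabra6-Cre marked cerebellar granule cells and Dlx6a-Cre hippocampal interneurons, each interneuron library being pooled from 2 mice, replicates 1 and 2 from a male and a female and replicate 3 from males. Aldh1-cre, named Aldh1l1-cre/ERT2 in the study's methods, marked cortical astrocytes and Tmem119-cre cortical microglia. The methods describe both glial drivers as tamoxifen-inducible and state that inducible lines received tamoxifen by gavage. The neuronal drivers are not given there as inducible. Tamoxifen treatment and glial cell type therefore cannot be told apart in the comparisons of glia with neurons. Each cell type had 3 replicates, which gave 18 libraries with 38270477 to 71440915 estimated counts each.

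Neurons load glutamate into synaptic vesicles through the vesicular glutamate transporters VGLUT1 (Slc17a7), VGLUT2 (Slc17a6) and VGLUT3 (Slc17a8), and GABA through VGAT (Slc32a1). After release, glutamate is cleared by sodium-coupled transporters of the plasma membrane, chiefly GLT-1 (Slc1a2) and GLAST (Slc1a3) on astrocytes and EAAC1 (Slc1a1) on neurons, and GABA by carriers that include GAT-3 (Slc6a11). Glutamine synthetase (Glul) of astrocytes turns glutamate into glutamine, which passes back to neurons as a source of new glutamate.

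Levels are given as TPM, a share of the library's transcripts corrected for transcript length, which allows genes to be compared within a library, with the values of replicates 1, 2 and 3 in that order. The labelled cell types were checked against marker genes. The 6 microglia markers summed to 23270 to 25166 TPM in microglia and to at most 110.2 elsewhere, the 6 astrocyte markers to 9702 to 10669 TPM in astrocytes and to at most 235 elsewhere, and the 6 interneuron markers to 2925 to 3102 TPM in interneurons and to at most 169 elsewhere. Prox1 was at 152 to 179 TPM in dentate gyrus granule cells and at most 0.585 in layer V neurons, while Fezf2 averaged 85.5 TPM in layer V neurons and 14.7 in dentate gyrus granule cells. Bcl11b, the other layer V marker listed, was higher in dentate gyrus granule cells (160 TPM on average) than in layer V neurons (34.4). Markers of other cell types were read as well. The 5 oligodendrocyte markers summed to 2612 to 2795 TPM in interneurons, against 102.5 to 399.7 in the other neurons, 767.8 to 982.5 in astrocytes and 449.5 to 535.8 in microglia. The 4 neuronal markers, at 3114 to 12801 TPM in neurons, still summed to 748 to 986 TPM in astrocytes and to 350.7 to 391.7 in microglia.

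**Figure D1:**
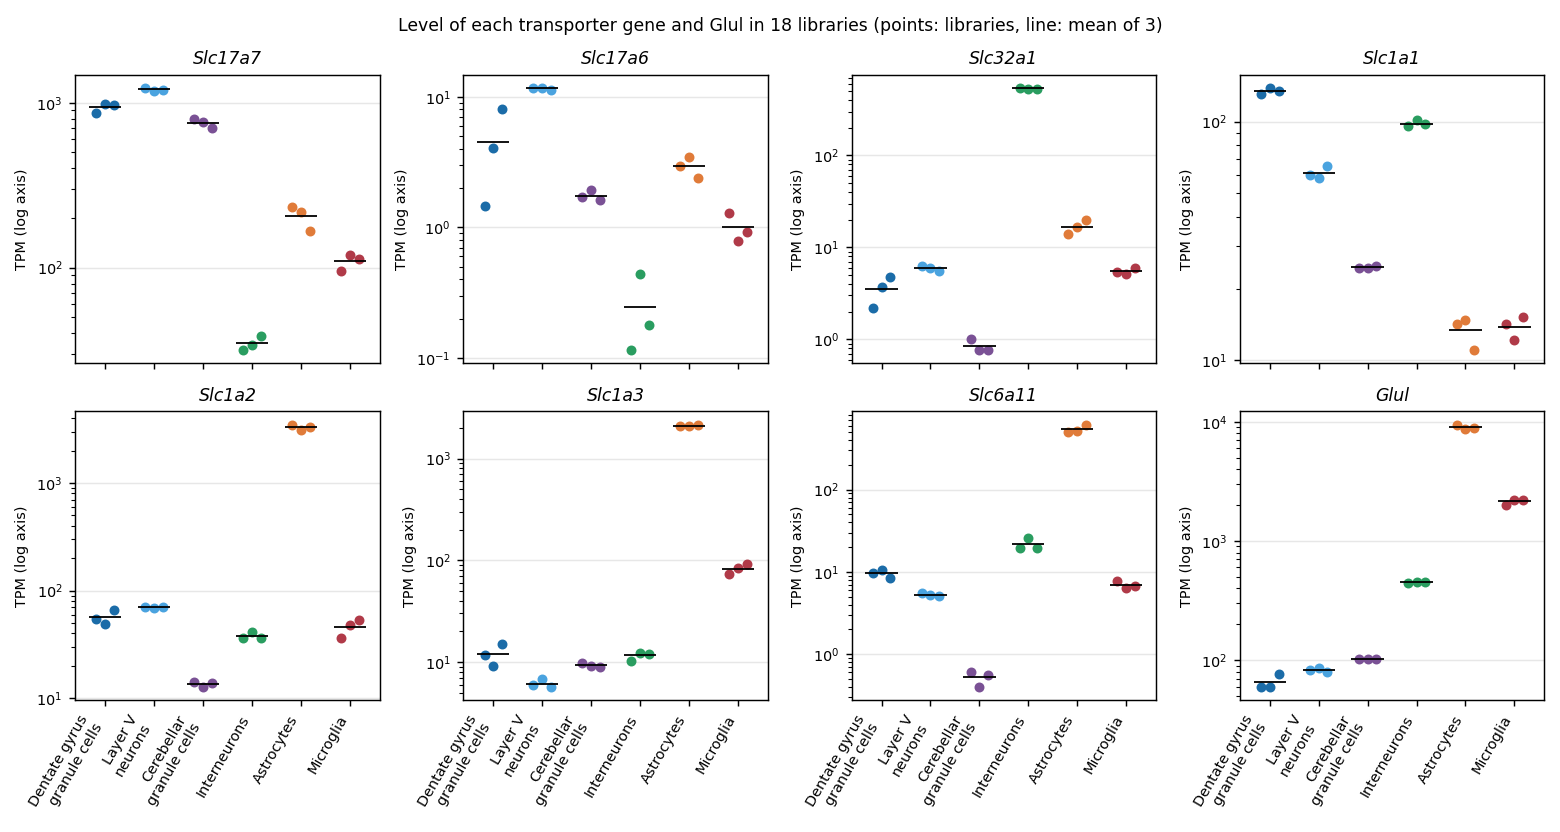
TPM (log axis, with a range of its own in each panel) of the 8 genes in the 18 libraries; each point is 1 library, each line the mean of 3, and colours mark the cell types. Slc1a2, Slc1a3, Slc6a11 and Glul were highest in astrocytes, Slc32a1 in interneurons, Slc17a7 in the 3 excitatory neuron types, Slc1a1 in dentate gyrus granule cells, and Slc17a6 in layer V neurons with a wide spread among the dentate gyrus libraries.

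Each gene had 1 cell type in which all 3 libraries lay above every other library. The share of all genes tested for which this holds was not counted. Of the 40 pairs of neighbouring cell types in the orders of mean TPM (5 pairs per gene), 34 had library ranges that did not overlap and 6 overlapped. Over all genes tested, 52.4% of neighbouring pairs did not overlap. The 6 overlapping pairs were microglia and astrocytes for Slc1a1, dentate gyrus granule cells and microglia as well as microglia and interneurons for Slc1a2, dentate gyrus granule cells and interneurons for Slc1a3, dentate gyrus granule cells and astrocytes for Slc17a6, and layer V neurons and microglia for Slc32a1.

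The vesicular step divided the neurons by transmitter. Slc17a7 (ENSMUSG00000070570.5, chromosome 7 from 45163949 to 45176142 of GRCm38, plus strand) was at 1238, 1183 and 1202 TPM in layer V neurons, 872, 989 and 974 in dentate gyrus granule cells, and 795, 762 and 700 in cerebellar granule cells. In interneurons it was at 31.5, 33.8 and 38.7 TPM. The 3 excitatory types thus did not overlap with interneurons, and the edgeR fold change was 31.2 (log2 fold change of interneurons over the mean of the excitatory types −4.96, standard error 0.09, adjusted p = 8.6e-18). The order of the excitatory types, layer V neurons above dentate gyrus granule cells above cerebellar granule cells, held in every library, although neither of the differences tested among them reached 2-fold: the log2 fold change was −0.58 (standard error 0.08) for dentate gyrus granule cells against layer V neurons, and −0.52 (standard error 0.07) for cerebellar granule cells against the mean of both.

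Slc17a7 was also read in glia, at 234, 217 and 167 TPM in astrocytes and 95.0, 120 and 113 TPM in microglia. These levels amount to 17.2% to 24.2% and 9.81% to 12.4% of the mean of the 9 excitatory libraries. The median of the neuronal markers Rbfox3, Snap25, Syt1 and Tubb3 stood at 14.1% to 17.0% of that mean in astrocytes and at 8.12% to 8.85% in microglia. In astrocytes Syt1 (19.0% to 23.3%) and Tubb3 (19.9% to 23.5%) overlapped with Slc17a7. Rbfox3 (9.21% to 10.5%) and Snap25 (7.51% to 10.85%) lay below it there. In microglia Rbfox3 was at 8.41% to 10.1%, Syt1 at 8.33% to 9.18%, Tubb3 at 7.90% to 8.52% and Snap25 at 3.3% to 3.8%. The part of neuronal RNA in the glial Slc17a7 reads was not tested. In microglia 15.3% to 21.9% of Slc17a7 TPM came from transcripts not annotated as protein-coding, chiefly those with a retained intron, against 6.46% to 14.9% in interneurons and at most 0.722% in the excitatory neurons.

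Slc17a6, which carries glutamate into vesicles in many subcortical neurons, was a small fraction of the vesicular glutamate transporters in every cell type. It is encoded on the same chromosome (ENSMUSG00000030500.6, chromosome 7 from 51622006 to 51671119, plus strand). Layer V neurons had 11.7, 11.8 and 11.3 TPM. The 3 dentate gyrus libraries had 1.47, 4.08 and 8.07 TPM, the widest ratio between replicates of any of the 8 genes in that cell type, with astrocyte marker sums of 60.5, 45.2 and 113 TPM and oligodendrocyte marker sums of 279, 304 and 400 TPM in the same libraries. The part of these in the spread was not tested. Cerebellar granule cells had 1.71, 1.93 and 1.63 TPM, astrocytes 2.95, 3.49 and 2.39, microglia 1.29, 0.784 and 0.925, and interneurons 0.115, 0.441 and 0.178, the last resting on 10 to 37 estimated counts. The astrocyte and microglia levels were 40.1% to 58.5% and 13.15% to 21.65% of the mean of the excitatory libraries. Against layer V neurons alone they averaged 25.4% and 8.63%. The neuronal markers gave the values stated for Slc17a7, and the part of neuronal RNA here was not tested. Slc17a6 was called lower in dentate gyrus granule cells than in layer V neurons (log2 fold change −1.60, standard error 0.36, adjusted p = 0.00088). With the libraries of batch 2 alone, which hold 1 library of each of these cell types, the log2 fold change was −0.85 and the edgeR adjusted p = 0.12. The layer V library in that fit went against its sex label.

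As a share of Slc17a6 and Slc17a7 TPM, Slc17a6 made up 0.214%, 0.253% and 0.233% in cerebellar granule cells, 0.937%, 0.984% and 0.933% in layer V neurons, and 0.168%, 0.411% and 0.822% in dentate gyrus granule cells. The cerebellar mean was 0.476 percentage points below the mean of the 6 forebrain libraries. This difference did not pass an exact permutation test (two-sided p = 0.095 over 84 splits). Without dentate gyrus replicate 1 the difference was 0.584 points in the same direction and p = 0.036 by the same exact permutation test. That was the smallest p the test could give without this library, since every cerebellar share then lay below every forebrain share. The forebrain types lay on both sides of the cerebellar values, with all layer V libraries above them and dentate gyrus replicate 1 below. Because the test pools the libraries of both forebrain types, its p also holds the difference between those types.

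Slc32a1 (ENSMUSG00000037771.11, chromosome 2 from 158610767 to 158615748, plus strand) was at 546, 534 and 527 TPM in interneurons. The excitatory neurons had 6.25, 5.92 and 5.57 TPM in layer V neurons, 2.19, 3.74 and 4.78 in dentate gyrus granule cells, and 1.01, 0.762 and 0.770 in cerebellar granule cells. Interneurons exceeded the mean of the excitatory types 184-fold (log2 fold change 7.52, standard error 0.14, adjusted p = 6.4e-18). Among the excitatory types, cerebellar granule cells were lower than the forebrain types (log2 fold change −2.42, standard error 0.22, adjusted p = 1.1e-08), and the gene stood at 0.142% to 0.189% of its interneuron level there, where the 6 interneuron markers had a median of 0.0671% to 0.148%. Of these markers Gad1 was at 0.232% to 0.290%, Gad2 at 0.161% to 0.217% and Dlx6 at 0.129% to 0.296% in cerebellar granule cells, Dlx1 was at most 0.0787%, and Dlx2 and Dlx5 had no count. Astrocytes had 14.0, 16.7 and 19.8 TPM, or 2.62% to 3.69% of the interneuron level, and microglia 5.46, 5.14 and 5.90. The same measure had a median over the 6 interneuron markers of 4.98% to 8.74% in astrocytes and 1.72% to 2.11% in microglia. Gad1 and Gad2 averaged 2.34% and 2.41% in astrocytes and 0.808% and 0.708% in microglia, below Slc32a1 at 3.14% and 1.03%. Dlx1, Dlx2, Dlx5 and Dlx6 lay above Slc32a1, averaging 5.41% to 17.4% in astrocytes and 1.54% to 6.34% in microglia. The part of interneuron RNA in the glial Slc32a1 reads was not tested. Slc17a8, the VGLUT3 gene and no member of the set, was at 24.4 ± 1.48 TPM (SD, n = 3) in interneurons and at most 0.990 TPM in any other library.

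**Figure D2:**
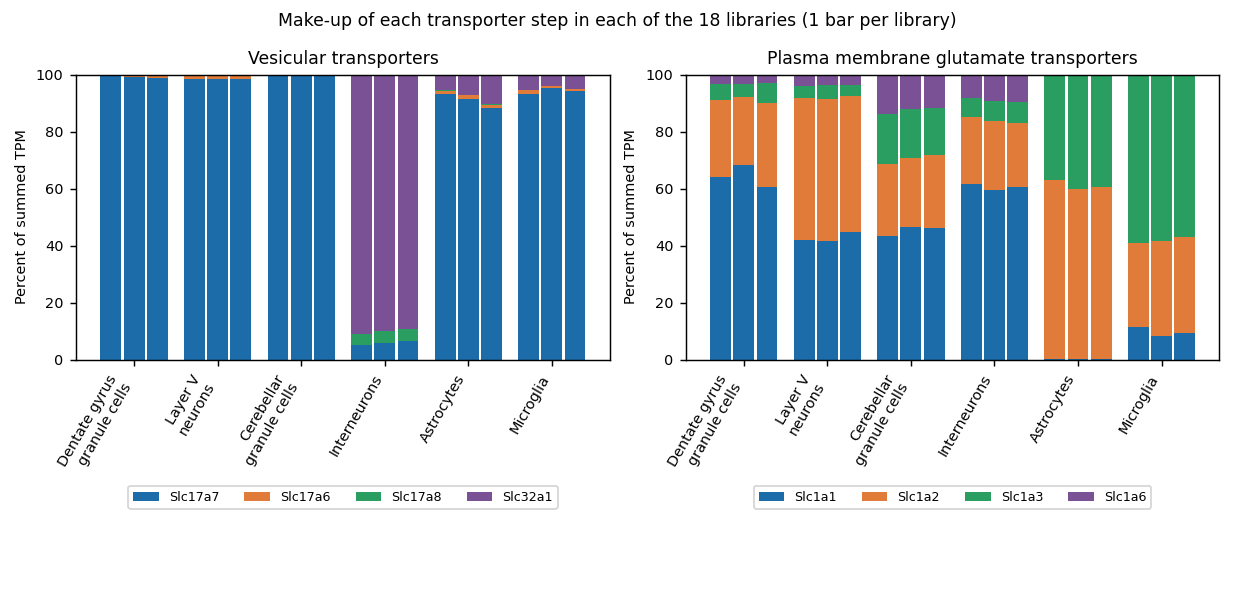
Percent of summed TPM that each gene contributes to the vesicular and the plasma membrane glutamate transporters; 1 bar per library, 3 per cell type in the order of replicates 1 to 3. Slc17a7 filled at least 98.47% of the vesicular sum in excitatory neurons and Slc32a1 at least 89.15% in interneurons; Slc1a1 led the glutamate uptake genes in dentate gyrus granule cells, cerebellar granule cells and interneurons, Slc1a2 in layer V neurons and astrocytes, and Slc1a3 in microglia.

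Glutamate uptake transcripts were concentrated in astrocytes. Slc1a2 (ENSMUSG00000005089.15, chromosome 2 from 102658659 to 102790784, plus strand) was at 3487, 3089 and 3322 TPM in astrocytes, against 70.6, 69.6 and 70.0 in layer V neurons, 54.9, 49.0 and 65.6 in dentate gyrus granule cells, 36.4, 41.1 and 36.3 in interneurons, and 14.3, 12.7 and 13.8 in cerebellar granule cells. Microglia had 36.7, 48.4 and 53.8 TPM. Astrocytes exceeded the mean of the 4 neuron types 105-fold (log2 fold change 6.71, standard error 0.08, adjusted p = 2.4e-21) and microglia 74.7-fold (log2 fold change 6.22, standard error 0.14, adjusted p = 3.8e-17). In whole pull-downs of this kind, RNA of the tagged cells and of astrocytes caught with them cannot be told apart. Nor can the number of astrocytes in a library and the RNA of each. Cerebellar granule cells were 5.00-fold below the forebrain excitatory types (log2 fold change −2.32, standard error 0.11, adjusted p = 1.2e-12), and all 3 of their libraries lay below every other library of the series.

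Slc1a3 (ENSMUSG00000005360.14, chromosome 15 from 8634124 to 8710764, minus strand) was at 2070, 2075 and 2159 TPM in astrocytes, with the largest log2 fold change of the 8 genes between astrocytes and neurons (8.12, standard error 0.09, adjusted p = 7.0e-22). Microglia followed at 73.3, 83.8 and 91.2 TPM, above all neurons (log2 fold change 3.36, standard error 0.08, adjusted p = 3.4e-17). Neurons had little: 11.7, 9.16 and 14.9 TPM in dentate gyrus granule cells, 10.3, 12.4 and 12.1 in interneurons, 9.86, 9.11 and 8.90 in cerebellar granule cells, and 5.93, 6.75 and 5.67 in layer V neurons. No difference between neuron types in this gene reached 2-fold in the 3 contrasts tested among neurons, although within batch 2 alone dentate gyrus granule cells were 1.06 above layer V neurons on the log2 scale (0.70 with all 18 libraries). Bergmann glia of the cerebellum are known for high GLAST. In cerebellar granule cell libraries Slc1a3 stood at 0.424% to 0.469% of its cortical astrocyte level. The 6 astrocyte markers had a median of 0.243% to 0.294% there, with Aldoc (1.95%) and Aqp4 (0.836%) averaging above Slc1a3 and the others below. The part of Bergmann glia RNA in these Slc1a3 reads was not tested.

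Of the summed TPM of Slc1a2 and Slc1a3, Slc1a3 made up 37.3%, 40.2% and 39.4% in astrocytes. Cerebellar granule cells had shares of 40.8%, 41.8% and 39.2%. The other neurons had less, with 17.6%, 15.8% and 18.5% in dentate gyrus granule cells, 22.1%, 23.1% and 25.0% in interneurons, and 7.75%, 8.83% and 7.49% in layer V neurons. In microglia it was 66.6%, 63.4% and 62.9%. The astrocyte share exceeded the mean of the 12 neuron libraries by 16.6 percentage points, which did not pass an exact permutation test (two-sided p = 0.079 over 455 splits). Without cerebellar granule cell replicate 1 the difference was 18.3 points, and without replicate 2 it was 18.4, each with p = 0.044 by the exact permutation test. With estimated counts in place of TPM the difference was 9.10 points, with p = 0.084 by the same exact test. The neuron types were themselves far apart, since the cerebellar libraries overlapped with astrocytes and the other 9 libraries lay below both. Because the test pools the libraries of all neuron types, its p also holds the differences between those types.

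Slc1a1, the neuronal transporter (ENSMUSG00000024935.11, chromosome 19 from 28835049 to 28913960, plus strand), ran the other way. It was at 131, 139 and 134 TPM in dentate gyrus granule cells, 95.6, 101 and 97.5 in interneurons, 59.7, 58.0 and 65.2 in layer V neurons, and 24.3, 24.5 and 24.9 in cerebellar granule cells, with no overlap between neighbouring types. Astrocytes had 14.3, 14.8 and 11.0 TPM and microglia 14.2, 12.2 and 15.2, which overlapped with each other and lay below every neuron. Both glial types were called lower than neurons, with log2 fold changes of −2.15 (standard error 0.06, adjusted p = 9.4e-16) and −2.25 (standard error 0.06, adjusted p = 3.2e-16). These glial levels were 15.1% to 20.1% and 16.6% to 20.8% of the mean of the 9 excitatory libraries. The neuronal markers gave the medians and single values stated for Slc17a7. In microglia 22.5% to 23.9% of Slc1a1 TPM came from transcripts not annotated as protein-coding, against at most 2.16% in neurons. Cerebellar granule cells were 3.83-fold below the forebrain excitatory types (log2 fold change −1.94, standard error 0.07, adjusted p = 1.0e-14), and the difference between dentate gyrus granule cells and layer V neurons was 1.88-fold, short of 2-fold.

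Slc1a1 made up 60.6% to 68.2% of the summed TPM of Slc1a1, Slc1a2, Slc1a3 and Slc1a6 (EAAT4) in dentate gyrus granule cells, 59.5% to 61.7% in interneurons, 43.2% to 46.5% in cerebellar granule cells and 41.6% to 44.6% in layer V neurons, against 0.201% to 0.285% in astrocytes. The sum itself was 5181 to 5574 TPM in astrocytes, 203 to 222 in dentate gyrus granule cells, 155 to 170 in interneurons, 140 to 146 in layer V neurons, 125 to 161 in microglia and 52.6 to 56.2 in cerebellar granule cells.

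Slc6a11, a GABA carrier, was highest in astrocytes, with interneurons next. The gene (ENSMUSG00000030307.8, chromosome 6 from 114131241 to 114249952, plus strand) was at 507, 509 and 618 TPM in astrocytes and 19.7, 25.5 and 19.4 in interneurons. Dentate gyrus granule cells had 9.75, 10.5 and 8.47 TPM, microglia 7.67, 6.30 and 6.72, layer V neurons 5.58, 5.18 and 5.07, and cerebellar granule cells 0.607, 0.396 and 0.552, the last from 42 to 86 estimated counts. None of these ranges overlapped. Astrocytes exceeded neurons 133-fold (log2 fold change 7.06, standard error 0.09, adjusted p = 1.1e-20), interneurons exceeded the excitatory types 6.45-fold (log2 fold change 2.69, standard error 0.11, adjusted p = 2.6e-13), and cerebellar granule cells were 13.8-fold below the forebrain excitatory types (log2 fold change −3.79, standard error 0.17, adjusted p = 7.1e-13). In microglia the betaine and taurine carrying family members Slc6a12 and Slc6a13 stood at 2.35 ± 0.755 and 24.5 ± 5.46 TPM (SD, n = 3). Astrocytes had 2.54 ± 0.564 and 11.9 ± 3.02 TPM, and neither gene reached 2-fold between astrocytes and microglia. The leptomeningeal markers Dcn and Col1a1 summed to 94.5 to 375 TPM in the microglia libraries, against 11.6 to 17.6 in astrocytes. The same markers summed to 105.7 to 164.7 TPM in dentate gyrus granule cells and 40.6 to 59.6 in layer V neurons, where Slc6a13 averaged 0.379 and 0.228 TPM. These sums were nearly all Dcn. Dcn and Col1a1 averaged 126 and 0.454 TPM in dentate gyrus granule cells and 51.2 and 0.145 in layer V neurons. In microglia they averaged 50.4 and 169 TPM. The part of leptomeningeal RNA in the Slc6a13 reads was not tested.

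Glul (ENSMUSG00000026473.16, chromosome 1 from 153899944 to 153909723, plus strand) reached the highest level of the 8 genes, 9469, 8753 and 8884 TPM in astrocytes. Microglia had 2018, 2209 and 2211 TPM, interneurons 445, 454 and 456, cerebellar granule cells 103, 102 and 103, layer V neurons 83.5, 85.8 and 79.3, and dentate gyrus granule cells 60.3, 59.6 and 76.1. No neighbouring types overlapped. Astrocytes exceeded neurons 84.9-fold (log2 fold change 6.41, standard error 0.05, adjusted p = 3.8e-23) and microglia 4.398-fold (log2 fold change 2.14, standard error 0.07, adjusted p = 1.2e-14), and microglia exceeded neurons 19.3-fold (log2 fold change 4.27, standard error 0.05, adjusted p = 7.5e-22). Interneurons exceeded the excitatory types 4.97-fold (log2 fold change 2.31, standard error 0.05, adjusted p = 1.1e-16). Oligodendrocytes also make glutamine synthetase, and the interneuron libraries were those with the oligodendrocyte markers at 2612 to 2795 TPM, of which Mbp averaged 1184. The same markers summed to 768 to 983 TPM in astrocytes, 449.5 to 535.8 in microglia and 102.5 to 399.7 in the excitatory neurons. The part of oligodendrocyte RNA in the interneuron value was not tested.

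Slc1a3, Slc6a11 and Glul were highest in astrocytes together, and their promoters are shown because RefSeq (GRCm38.p6) places their start within 43 bases of the start of the transcript that leads in these libraries. Each sequence runs 5′ to 3′ on the strand of the gene from 250 bases before the start to 50 after it, and capitals mark 4 motifs searched on either strand. The GC box was searched as GGGCGG. The TATA box was searched as TATAAA. The CCAAT box was searched as CCAAT. The nuclear factor I site was searched as TTGGC, whose reverse complement shares bases with a CCAAT box that follows a G.
Slc1a3 (chr15:8710758-8711057, minus strand): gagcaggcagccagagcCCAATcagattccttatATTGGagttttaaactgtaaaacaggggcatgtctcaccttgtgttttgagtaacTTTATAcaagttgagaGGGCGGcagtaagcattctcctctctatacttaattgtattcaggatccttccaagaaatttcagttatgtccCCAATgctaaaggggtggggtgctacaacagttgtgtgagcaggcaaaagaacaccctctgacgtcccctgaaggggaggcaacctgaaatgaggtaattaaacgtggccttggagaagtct
Slc6a11 (chr6:114130991-114131290, plus strand): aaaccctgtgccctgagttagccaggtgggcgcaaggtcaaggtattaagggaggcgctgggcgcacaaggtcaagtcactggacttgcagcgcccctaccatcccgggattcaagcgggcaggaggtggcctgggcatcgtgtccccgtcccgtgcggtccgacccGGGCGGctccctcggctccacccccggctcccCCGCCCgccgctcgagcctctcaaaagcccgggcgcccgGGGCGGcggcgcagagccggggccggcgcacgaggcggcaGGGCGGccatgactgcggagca
Glul (chr1:153899679-153899978, plus strand): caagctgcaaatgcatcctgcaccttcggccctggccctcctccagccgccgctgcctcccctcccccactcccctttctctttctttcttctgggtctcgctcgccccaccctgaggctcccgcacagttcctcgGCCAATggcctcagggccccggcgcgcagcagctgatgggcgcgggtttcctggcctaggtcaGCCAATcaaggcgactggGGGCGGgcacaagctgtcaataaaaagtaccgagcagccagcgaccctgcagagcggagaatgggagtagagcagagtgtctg
Slc6a11 held GGGCGG 4 times and none of the other motifs. Slc1a3 held CCAAT 3 times, with GGGCGG and TATAAA once each, and Glul held CCAAT 2 times, TTGGC 2 times, each time overlapping, and GGGCGG once. Among 32851 promoters of the same length, 35.7% held GGGCGG, 37.4% CCAAT, 13.6% TATAAA and 46.7% TTGGC. The GC content was 45.3% for Slc1a3, 72.3% for Slc6a11 and 64.3% for Glul, against a median of 52.7%. For Slc1a2 the RefSeq start of the same table lay 47779 bases from the start of the leading transcript, Slc1a2-202, and its window is not shown.

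Counted per comparison, most of the 8 genes were called between astrocytes and microglia (7) and between astrocytes and neurons (6), and 1 between the forebrain excitatory types. A call required an adjusted p of at most 0.05 over all genes and at least a 2-fold difference by edgeR, and each contrast compares means of log levels, so that a cell type far below the others weighs as much as one far above. In astrocytes against neurons, 5 genes were called higher (Slc1a2, Slc1a3, Slc6a11, Glul and Slc32a1) and 1 lower (Slc1a1), against 28.3% and 13.7% of all genes. The median log2 fold change was 3.73 over the 8 genes and 0.14 over all genes. Slc32a1 was only 1.04 (standard error 0.13) above the mean log level of the neurons, and its TPM in astrocytes lay above that of the 3 excitatory types but far below that of interneurons. Its call was lost in 9 of the 18 fits that left out 1 library, with log2 fold changes of 0.78 to 0.98: those without dentate gyrus replicates 1 or 2, layer V replicates 1, 2 or 3, cerebellar granule cell replicates 2 or 3, astrocyte replicate 3 or microglia replicate 1. Slc17a7 (−0.75) and Slc17a6 (0.71) did not reach 2-fold.

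In microglia against neurons, 2 genes were called higher (Slc1a3 and Glul) and 2 lower (Slc1a1 and Slc17a7, the latter at −1.76 with a standard error of 0.07 and adjusted p = 1.0e-13), against 31.7% and 21.4% of all genes, with medians of −0.08 and 0.15. Slc1a2 (0.49), Slc6a11 (0.69), Slc32a1 (−0.65) and Slc17a6 (−0.94) fell short of 2-fold, and Slc17a6 passed it in 5 of 10 other settings (−1.18 to −1.01) and in 4 of the 18 fits without 1 library (−1.17 to −1.02), those without dentate gyrus replicate 1, interneuron replicates 1 or 3, or microglia replicate 1. In astrocytes against microglia, 7 genes were called higher and none lower, Slc1a1 being the exception (0.10, standard error 0.07, adjusted p = 0.20), against 23.1% and 21.1% of all genes, with medians of 1.92 and 0.04. Slc17a7 stood at the margin (1.01, standard error 0.08), and its call was lost in 12 of the 18 fits without 1 library (0.87 to 0.98), those without any 1 library of the dentate gyrus, layer V or cerebellar groups, astrocyte replicates 1 or 2, or microglia replicate 1.

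In interneurons against excitatory neurons, 3 genes were called higher (Slc32a1, Slc6a11 and Glul) and 2 lower (Slc17a7, and Slc17a6 at −4.48 with a standard error of 0.46), against 18% and 6.64% of all genes, with medians of 0.41 and 0.08. In cerebellar granule cells against forebrain excitatory neurons, 5 genes were called lower (Slc6a11, Slc32a1, Slc1a2, Slc17a6 and Slc1a1) and none higher, against 29.0% lower and 15.2% higher over all genes, with medians of −2.02 and −0.19. In dentate gyrus granule cells against layer V neurons only Slc17a6 was called, lower, against 13.2% of all genes in each direction, with medians of −0.57 and 0.05. In that last comparison the edgeR fold changes of 7 of the 8 genes were below 2. On the TPM scale Slc1a1 averaged 135 in dentate gyrus granule cells and 61.0 in layer V neurons, a wider ratio than its edgeR fold change of 1.88.

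**Figure D3:**
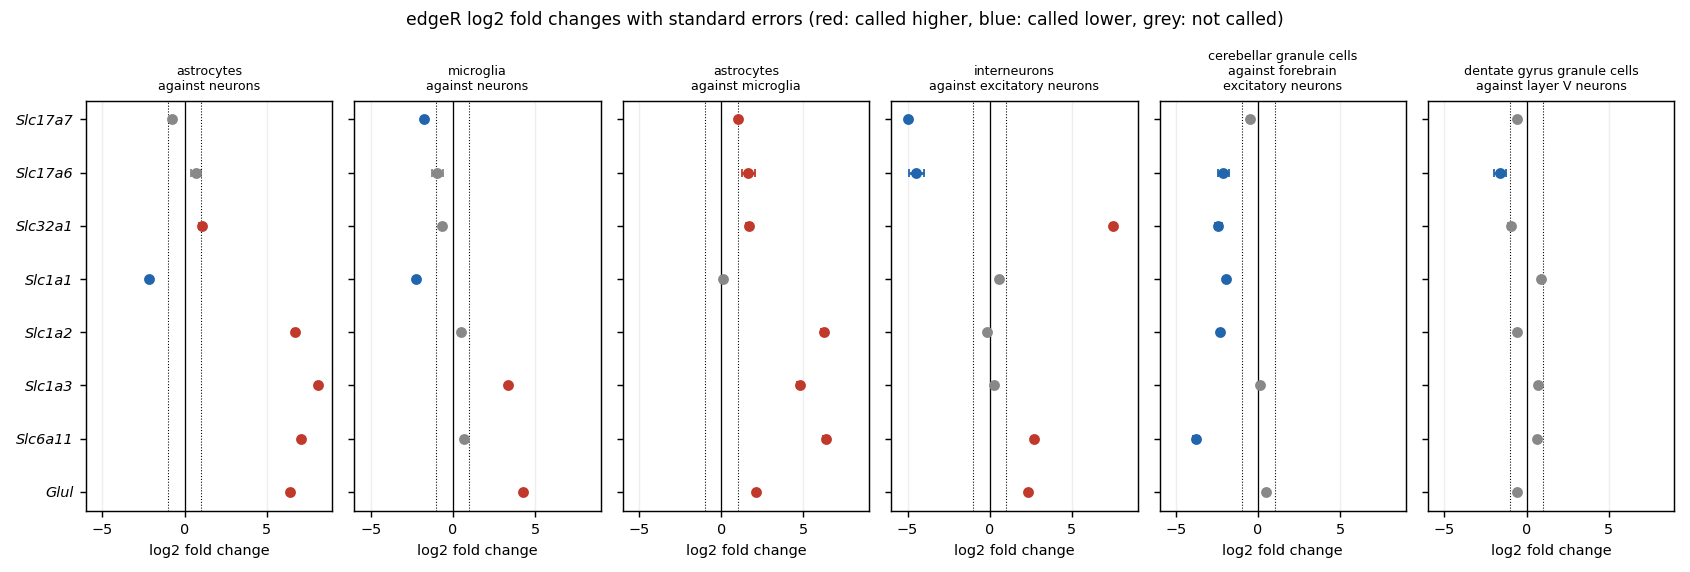
edgeR log2 fold changes (x axis) of the 8 genes (y axis) in the 6 comparisons, with standard errors as bars, often smaller than the points; dotted lines mark 2-fold, and red and blue mark genes called higher and lower. Between astrocytes and neurons, Slc1a2, Slc1a3, Slc6a11 and Glul lay between 6.41 and 8.12; between dentate gyrus granule cells and layer V neurons, Slc17a6 alone lay beyond 2-fold and was called.

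All interneuron and microglia libraries came from sequencing batch 2, and the libraries used for the other types from batch 1, so that batch and cell type are partly confounded. In all, 4 replicates, 1 each of dentate gyrus granule cells, layer V neurons, cerebellar granule cells and astrocytes, were sequenced in both batches. Over these 4 replicates and 8 genes, the 21 values at or above 10 TPM differed between batches by at most 0.065 on the log2 scale, and the largest of all 32 differences was 0.211, for Slc17a6 in astrocytes (3.49 against 3.01 TPM). Batch 2 holds 1 library each of these 4 types, so that a fit within it takes its spread from the interneuron and microglia libraries and assumes that the single libraries vary alike, and its layer V library is the one that went against its sex label. In that fit all 28 calls kept their sign and 26 were called again. For astrocytes against neurons the log2 fold changes within batch 2 were 6.44 for Slc1a2, 7.95 for Slc1a3, 6.84 for Slc6a11 and 6.20 for Glul. For microglia against neurons they were 3.26 for Slc1a3 and 4.15 for Glul, and for interneurons against excitatory neurons 7.39 for Slc32a1, −5.00 for Slc17a7, 2.66 for Slc6a11 and 2.19 for Glul. Within batch 1 alone, the 2 comparisons among excitatory neurons could be made and all 6 of their calls were made again.

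The 4 genes highest in astrocytes were set beside the 6 astrocyte markers Aldh1l1, Aqp4, Gja1, Gfap, Sox9 and Aldoc, each as percent of its own astrocyte mean, to show how much is read in other cell types. The marker median was 0.517% to 1.06% in dentate gyrus granule cells, 0.589% to 0.645% in layer V neurons, 0.243% to 0.294% in cerebellar granule cells, 1.08% to 1.38% in interneurons and 1.95% to 2.32% in microglia. Slc1a2 lay above it in all libraries of dentate gyrus granule cells (1.48% to 1.99%), layer V neurons (2.11% to 2.14%) and cerebellar granule cells (0.385% to 0.434%), overlapped with it in interneurons (1.10% to 1.25%) and lay below it in microglia (1.11% to 1.63%). Slc1a3 lay above it in microglia (3.49% to 4.34%) and cerebellar granule cells, and below it in layer V neurons (0.270% to 0.321%) and interneurons (0.490% to 0.588%). Slc6a11 reached 3.56% to 4.68% in interneurons and 0.0728% to 0.112% in cerebellar granule cells. Glul was at 22.3% to 24.5% in microglia and 4.93% to 5.05% in interneurons, the farthest above the marker median in both. Single markers differed: in layer V neurons Aldh1l1 averaged 7.92% and Sox9 2.73%, both above Slc1a2. In cerebellar granule cells Aldoc (1.95%) and Aqp4 (0.836%) averaged above both Slc1a2 and Slc1a3. Gfap averaged above Slc1a2 in dentate gyrus granule cells (2.84%) and above Slc1a3 in microglia (7.32%). In each of these cases the remaining markers averaged below the gene.

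**Figure D4:**
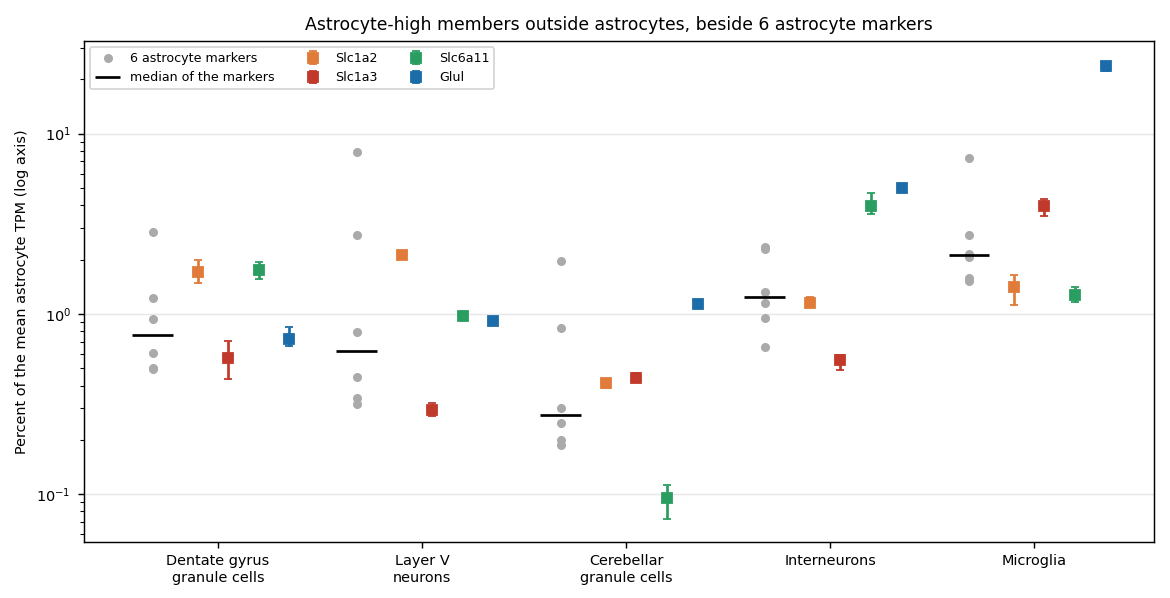
Level of Slc1a2, Slc1a3, Slc6a11 and Glul outside astrocytes as percent of the mean astrocyte TPM (log axis; squares are means of 3 libraries, bars their range), beside the means of the 6 astrocyte markers (grey) and the median of the markers (black line). Glul in microglia (23.8% on average) lay above all 6 markers, and Slc6a11 in cerebellar granule cells (0.0953%) below all 6.

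Other genes of the cycle, 25 in a fixed list, gave the surroundings of these 8. Slc1a7 had too few counts to be tested. Of the other 24, 12 were called higher and 7 lower in astrocytes against neurons, with a median log2 fold change of 1.04, against 28.3% higher, 13.7% lower and a median of 0.14 over all genes. Among the higher were Slc38a3, a glutamine transporter of astrocytes (351 ± 23.2 TPM, log2 fold change 7.78, standard error 0.16), Slc7a11, the light chain of the cystine and glutamate exchanger (50.0 ± 4.48 TPM, log2 fold change 7.02, standard error 0.11), and Glud1, glutamate dehydrogenase (1237 ± 41.7 TPM, log2 fold change 3.94, standard error 0.03). Pcx, pyruvate carboxylase, which supplies carbon for new glutamate in astrocytes, was at 81.2 ± 6.35 TPM against 18.7 to 43.2 on average in neurons. Among the lower were Gls2 (−1.63, standard error 0.11) and the aspartate aminotransferases Got1 (−1.88) and Got2 (−1.91). The neuronal glutamine carriers Slc38a1 (−1.69) and Slc38a2 (−1.11) were lower as well.

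Microglia, where Glul was second highest, had 6 of these 24 genes higher and 13 lower than neurons, against 31.7% and 21.4% of all genes. Of the 10 enzymes 9 were lower, Glud1 being the exception, and Got1 fell furthest (−3.00, standard error 0.05). Slc38a3 was at 31.2 ± 6.64 TPM in microglia, or 11.9-fold below astrocytes. Slc1a5 was called higher in microglia than in neurons (6.24 ± 1.89 TPM, log2 fold change 4.72, standard error 0.18). Slc1a4, which exchanges neutral amino acids, was instead called lower in microglia (−1.24) and highest in astrocytes (123 ± 4.03 TPM).

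In interneurons against excitatory neurons, 9 of the 24 were called higher and none lower, against 18% and 6.64% of all genes, although 11 of the 15 others were also at an adjusted p of at most 0.05 without reaching 2-fold. The 9 included the glutamate decarboxylases Gad1 (2029 ± 52.9 TPM, log2 fold change 6.42) and Gad2 (570 ± 29.0 TPM, 7.29), which also serve as interneuron markers here, and the enzymes of GABA breakdown Abat (438 ± 3.57 TPM, 3.43) and Aldh5a1 (108 ± 1.07 TPM, 1.98). Slc38a1, which brings glutamine into neurons, was at 154 ± 4.94 TPM in interneurons and 111 ± 1.09 in cerebellar granule cells. Dentate gyrus granule cells read Gad1 at 150 ± 9.02 TPM, 8.22-fold above layer V neurons (log2 fold change 3.04, standard error 0.13), with Gad2 at 4.73 ± 1.15 TPM and Slc32a1 at 2.19 to 4.78 TPM in the same libraries.

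Against forebrain excitatory neurons, cerebellar granule cells had 2 of the 24 genes higher, Slc38a2 (1.89, standard error 0.05) and Slc38a1 (1.41, standard error 0.05), and 9 lower, against 15.2% and 29.0% of all genes. Between dentate gyrus granule cells and layer V neurons 4 were higher and 2 lower, near the 13.2% of all genes in each direction, and the largest difference was that of the glutamine transporter Slc38a5 (6.71 ± 0.380 against 0.267 ± 0.187 TPM, log2 fold change 5.29, standard error 0.39).

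**Figure D5:**
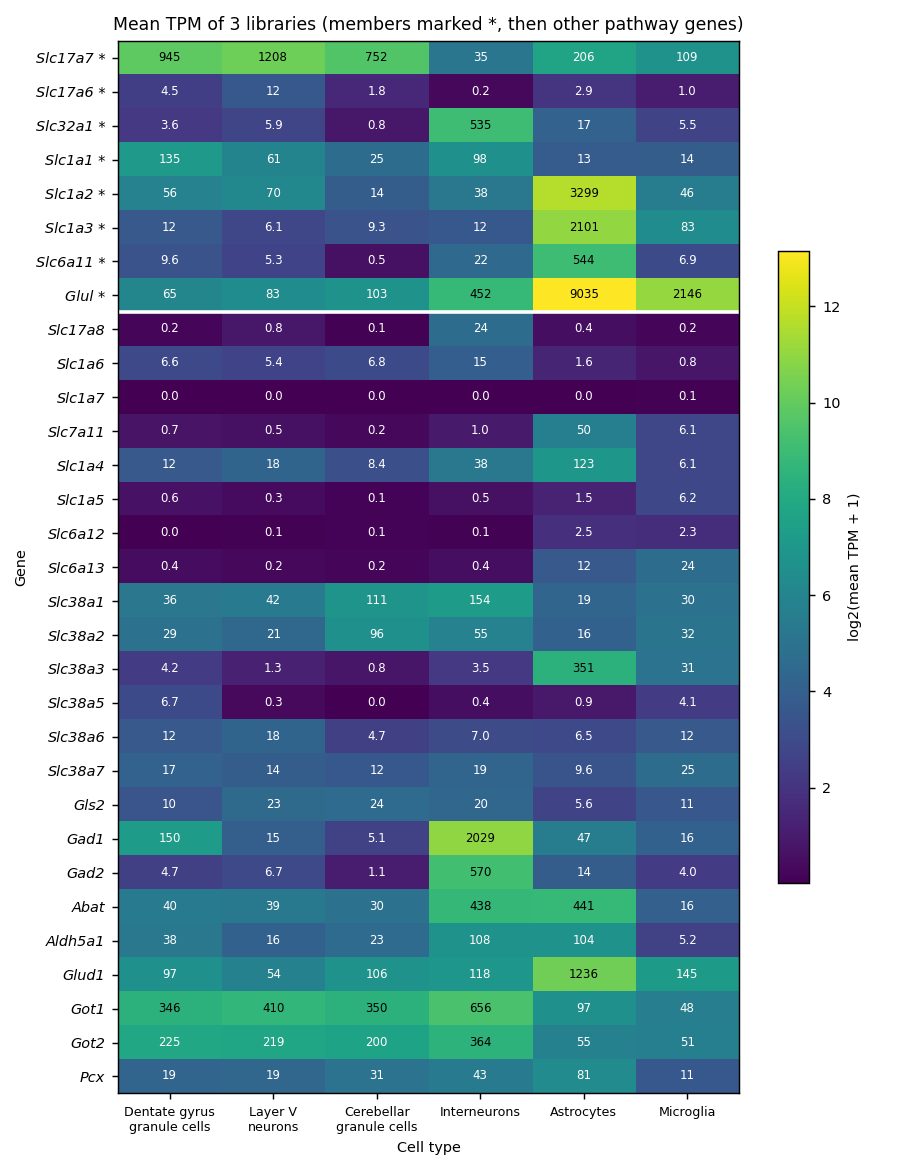
Mean TPM of 3 libraries (printed in each cell; colour is log2 of TPM + 1) of the 8 genes (marked *) and other genes of glutamate, glutamine and GABA handling (y axis) in the 6 cell types (x axis). Glul, Slc1a2, Slc1a3 and Glud1 form the highest values of the astrocyte column, and Gad1, Gad2 and Slc32a1 are highest in interneurons.

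The leading transcript of each gene, the protein-coding one with the most TPM, held at least 76.08% of that gene's TPM in every library. Slc32a1 has 1 transcript in the index. The lowest share of the leading transcript was 99.18% for Slc6a11, 94.49% for Glul, 89.84% for Slc1a2, 81.9% for Slc17a6, 79.71% for Slc1a3, 78.04% for Slc17a7 and 76.08% for Slc1a1. For Slc1a3 that library was one of dentate gyrus granule cells, where up to 18.95% of its TPM came from transcripts not annotated as protein-coding, against at most 0.339% in astrocytes. For Slc17a7 and Slc1a1 it was one of microglia, with the remainder in transcripts with a retained intron.

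The genes most like each of the 8 were sought by Pearson's r of log2(TPM + 1) over the 18 libraries among 12338 genes, as a description in which libraries of 1 cell type share their level. Slc1a2 was closest to 2810459M11Rik (r = 0.994) and Sox9 (0.990), an astrocyte marker here, Slc1a3 to Lrp4 (0.994) and Vcam1 (0.994), Slc6a11 to Igdcc4 (0.996) and Psat1 (0.987), and Glul to Tsc22d4 (0.996) and Lap3 (0.990). Slc32a1 was closest to Gad2 (0.995) and Lhx6 (0.994), Slc17a7 to Nrn1 (0.995) and Rtn4r (0.964), and Slc1a1 to Pnck (0.995) and Gpr61 (0.984). Slc17a6 had no close partner, its nearest being Ldha (0.923) and Lingo1 (0.908).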

How the data were processed

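RiboTag mRNA of 6 cell types was sequenced (Kapa Stranded mRNA-Seq kit). For trimming the authors used cutadapt 3.5, and for quantification against GENCODE transcripts of GRCm38 kallisto 0.46.2 (versions from the submitters' processing notes). They deposited estimated counts, not normalized, and TPM per transcript and library, both summed here per gene. Reads shared by near-identical transcripts are split by kallisto's model.

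For replicates sequenced in both batches the batch 1 library was used. After rounding, counts were tested in 1 fit of 18 libraries by edgeR 4.0.16 (quasi-likelihood, TMM, filterByExpr) in R 4.3.3, with DESeq2 1.42.0 as an alternative. Log2 fold changes and standard errors are edgeR's, shares within a library were compared by exact permutation, and other steps ran in Python 3.11.15. Coordinates come from GENCODE release M21 (GRCm38). The authors' test, sleuth, was not run. The code was tested on simulated data. P-values of edgeR measure the spread between 3 libraries per group. Those of the permutation tests also take in differences between the neuron types that were pooled.

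Genes named are the 8, the 25 other pathway genes, the 2 most similar genes each (mean TPM of at least 10 in a cell type) and cell type markers, a few of which are not reported here singly. Pc was read as Pcx. Members and lists were chosen with earlier results of these data known. One library, used in alternatives only (layer V neuron replicate 1, batch 2), went against its sex label.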

Additional observations from a re-analysis of the deposited data

How the results depend on the processing

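Of the 8 genes in 6 comparisons, 475 of 496 values under other settings and 833 of 864 values without 1 library kept their direction and their call. The counts of genes called stayed within 1.5 times except for dentate gyrus granule cells against layer V neurons, where 2 genes in place of 1 were called with upper quartile factors, with no filter on low counts, with counts from length-scaled TPM and with the batch 2 library in place of batch 1, and 1 to 2 without 1 library. The added gene was Slc32a1 (−0.96 before, −1.03 to −1.01 under these settings). Slc32a1 in astrocytes against neurons fell to 0.86 to 1.00 and lost its call in 4 of 10 settings, and Slc17a7 in astrocytes against microglia fell to 0.89 to 0.99 in 3 of 10. With library size alone as the scaling, 3 uncalled values turned sign: Slc1a1 in astrocytes against microglia (0.10 before, −0.02 here, and −0.02 to 0.19 without 1 library, the lowest without astrocyte replicate 2), Slc1a2 in interneurons against excitatory neurons (0.02) and Slc1a3 in cerebellar granule cells against forebrain excitatory neurons (−0.02). That scaling moved the median of all genes from 0.08 to 0.24 in interneurons against excitatory neurons and from −0.19 to −0.32 in cerebellar granule cells against forebrain excitatory neurons. The cause was not tested.

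Without 1 library, the Slc17a6 share difference ran from −0.584 to −0.421 percentage points and the Slc1a3 share difference from 15.3 to 18.4, and with estimated counts in place of TPM the latter was 9.10. With the replicate number as a block (replicate block), the counts were 6, 4, 7, 5, 5 and 1 in the order of the comparisons in the text, as without it. Of the 45 pairs of libraries with one number, 3 had a correlation over 0.1 (median 0.039, against −0.02 for other pairs), which did not meet the criterion for pairing, although 15 of 18 libraries correlated best with their own number. The number also goes with the labelled sex, replicate 1 being female outside the pooled interneurons and replicate 3 male in every cell type. Astrocytes against neurons could not be fitted within batch 1, which holds no interneurons. After the data had been seen, alternatives were added: batch 2 libraries in place of batch 1 except for layer V replicate 1, and those for the order of cell types and the levels relative to astrocytes. Precision is limited by counts for Slc17a6 in interneurons and Slc6a11 in cerebellar granule cells.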
